A study of Mus musculus with 6 samples.

Results

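The genes described are 36 mouse genes for enzymes and carriers that bring pyruvate into the mitochondrion, run the tricarboxylic acid (TCA) cycle and break down fatty acids by beta-oxidation. They were picked by gene name from these pathways, 6 for pyruvate entry, 13 for the cycle and 17 for beta-oxidation, out of 27480 genes listed. All 36 were among the 16592 genes with enough counts to be tested. RNA of OT1 CD8+ T cells, labelled wild-type, was measured by bulk sequencing; OT1 is a mouse strain with a transgenic T cell receptor for a peptide of ovalbumin (OVA). The 3 control libraries (vector 1 to 3) came from cells with the overexpression vector alone and the other 3 (PTMA 1 to 3) from cells overexpressing PTMA, prothymosin alpha, a small acidic protein. OVA peptide was present for 48 h in both groups, so resting cells are not part of the comparison. The study, by its title, concerns PTMA, mitochondrial integrity and metabolism in these cells. The labels do not give the age of the animals, the species of the PTMA construct or whether replicates came from separate cultures, so each p-value reflects the variation among libraries, whether biological or technical.

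Pyruvate, the end product of glycolysis, crosses the inner mitochondrial membrane through the carrier formed by Mpc1 and Mpc2 and is turned into acetyl-CoA by the pyruvate dehydrogenase complex. The cycle joins acetyl-CoA to oxaloacetate and oxidises it stepwise, handing electrons to the respiratory chain. Fatty acids enter as carnitine esters made and unmade by Cpt1a and Cpt2, and each turn of beta-oxidation removes acetyl-CoA. Activated CD8+ T cells rely strongly on glycolysis, while memory CD8+ T cells are known for greater use of mitochondrial oxidation.

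None of the 36 genes differed between PTMA and vector past an adjusted p of 0.05 (edgeR quasi-likelihood test, Benjamini-Hochberg adjustment over all genes), against 0.0121% of all tested genes, which is 2 of 16592. Their adjusted p-values ran from 0.951 to 0.998, and 2 had an unadjusted p under 0.05; DESeq2 also called none of the 36, against 0.181% of its genes. The estimated differences were small and mostly of 1 sign: 31 of the 36 log2 fold changes, PTMA minus vector, lay above 0, beside 46.8% of all tested genes and 54.8% of the 8782 tested genes within the genes' range of expression. Their median was 0.09, a difference of 6.5%, beside -0.01 over all tested genes. They ran from -0.10 for Dlst to 0.24 for Cpt2. The 5 genes below 0 were Mpc2, Dlst, Acads, Dld and Slc25a20. Of these, Dld and Slc25a20 round to 0.00 and change sign with the scaling, as does Hadha among those above 0. In the alternatives that keep all 6 libraries 30 to 33 genes lay above 0. With 1 library left out the number ran from 27 (without PTMA 2) to 34 (without PTMA 3). By pathway, 5 of 6 genes of pyruvate entry lay above 0 (median 0.08), 11 of 13 of the cycle (median 0.11) and 15 of 17 of beta-oxidation (median 0.09). In folds, the estimates ran from 0.935 to 1.18, and the 95% intervals of all 36 lay between 0.792 and 1.41, so each of them excludes a difference of 1.5-fold in either direction. The standard errors ran from 0.0599 to 0.143 on the log2 scale, with a median of 0.0913, so a typical estimate was about the size of its error.

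**Figure D1:**
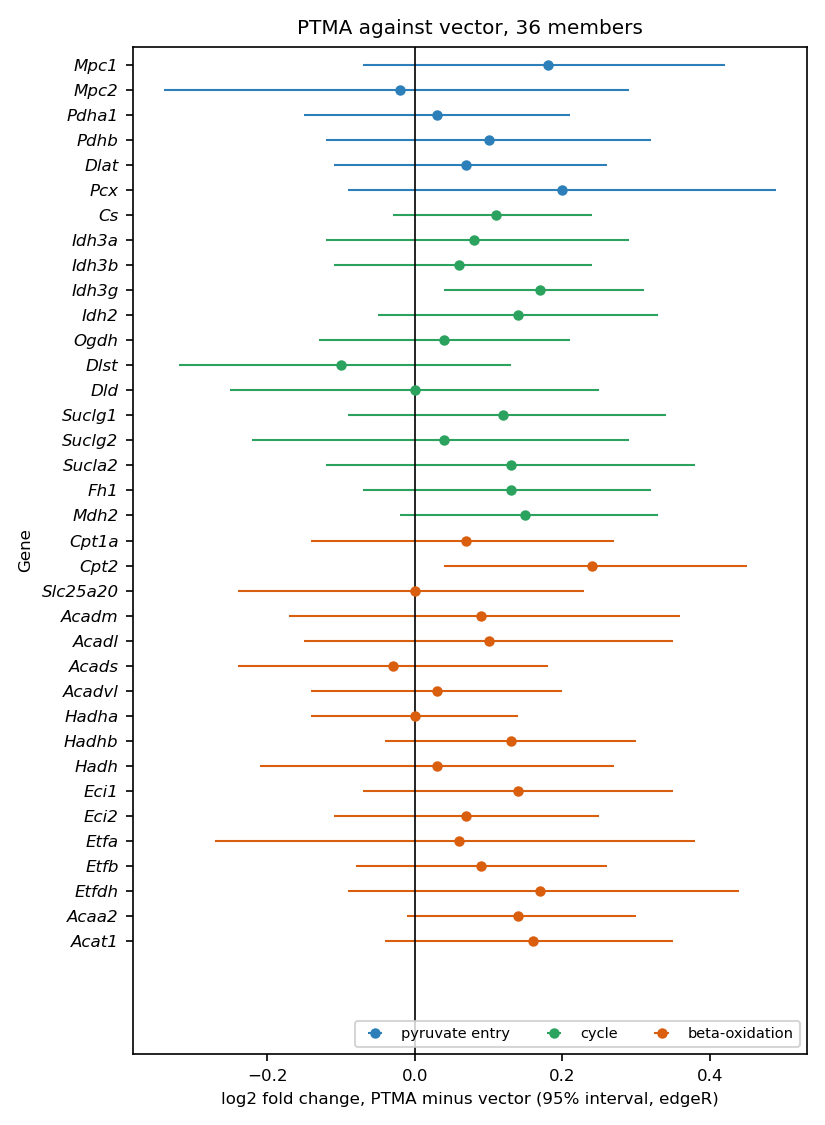
Log2 fold change, PTMA minus vector, of each of the 36 genes (points) with its 95% interval (lines) from the edgeR fit over 6 libraries, coloured by pathway. The points run from -0.10 (Dlst) to 0.24 (Cpt2), 31 of 36 lie right of 0, and 34 of the 36 intervals hold 0.

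The 95% intervals of Idh3g and Cpt2 lay above 0, and none lay below it. These were the 2 genes with an unadjusted p under 0.05 in edgeR's quasi-likelihood test, all on the higher side, where the background was 1.92% of all tested genes and 2.58% of those in the same range of expression. In 4 genes, Cs, Idh3g, Idh2 and Cpt2, every PTMA library lay above every vector library, beside 5.39% of all tested genes and 7.46% of those in the same range. In none of the 36 did every PTMA library lie below every vector library. The background was 5.38% of all tested genes and 320 of the 8782 in the same range. The first count depended on vector 3: without that library 16 genes had an unadjusted p under 0.05 on the higher side, where the background was 7.68%, and the median log2 fold change was 0.15. Without PTMA 3 there were 4 (background 1.99%), without PTMA 2 there were 0, and leaving out any other library left 1. No adjusted p of the 36 genes passed with any library left out.

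RefSeq promoters (GRCm38, 250 bases before to 50 after the start) were at hand for 33 of the 36 genes. Shown are those of Idh3g and Cpt2, the genes whose intervals lay above 0, of Hadhb, which shares its start region with its partner Hadha, and of Etfa, whose level varied most between the vector libraries. Capitals mark the letters CCGGAAG (a core of ETS factor sites) or GCATGCGC (the core of the site of nuclear respiratory factor NRF1) on either strand, and Hadhb holds neither. The windows are Idh3g chrX:73786848-73787147 (minus strand), Cpt2 chr4:107923540-107923839 (minus strand), Hadhb chr5:30155003-30155302 (plus strand) and Etfa chr9:55512194-55512493 (minus strand), each printed 5′ to 3′ along its gene.
Idh3g: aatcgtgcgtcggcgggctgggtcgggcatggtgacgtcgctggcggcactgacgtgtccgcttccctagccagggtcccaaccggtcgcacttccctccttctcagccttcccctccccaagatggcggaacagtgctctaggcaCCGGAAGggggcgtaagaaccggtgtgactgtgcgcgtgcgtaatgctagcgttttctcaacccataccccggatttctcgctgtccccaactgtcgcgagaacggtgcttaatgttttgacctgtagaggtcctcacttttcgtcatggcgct
Cpt2: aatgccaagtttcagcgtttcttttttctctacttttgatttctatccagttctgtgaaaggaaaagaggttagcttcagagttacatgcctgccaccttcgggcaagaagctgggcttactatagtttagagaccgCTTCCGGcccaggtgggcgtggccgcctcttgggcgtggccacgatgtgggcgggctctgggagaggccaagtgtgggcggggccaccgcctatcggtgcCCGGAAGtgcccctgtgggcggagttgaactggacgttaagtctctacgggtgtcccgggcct
Hadhb: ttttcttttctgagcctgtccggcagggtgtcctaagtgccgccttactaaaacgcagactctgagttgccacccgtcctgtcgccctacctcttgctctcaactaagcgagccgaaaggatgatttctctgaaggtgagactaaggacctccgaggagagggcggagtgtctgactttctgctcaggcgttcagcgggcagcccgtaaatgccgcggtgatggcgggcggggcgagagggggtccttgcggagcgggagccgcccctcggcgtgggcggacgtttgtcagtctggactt
Etfa: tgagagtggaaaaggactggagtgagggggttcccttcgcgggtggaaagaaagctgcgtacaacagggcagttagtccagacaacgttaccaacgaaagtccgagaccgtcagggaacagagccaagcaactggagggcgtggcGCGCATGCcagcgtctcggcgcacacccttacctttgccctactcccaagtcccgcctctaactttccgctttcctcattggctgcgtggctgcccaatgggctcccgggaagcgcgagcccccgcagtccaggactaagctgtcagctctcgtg

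In Idh3g the ETS letters begin 104 bases before the start, in Cpt2 they begin 113 and 13 bases before it, and in Etfa the NRF1 letters begin 105 bases before it. The Hadhb window crosses the gap to Hadha. Searched on both strands, CCGGAAG occurred in the promoters of 6 of 33 genes (18.2%), Mpc1, Idh3b, Idh3g, Dlst, Cpt2 and Slc25a20, beside 9.93% of 27025 genes and 20.1% of the 10637 of them that were tested. GCATGCGC occurred in 4 of 33 (12.1%), Ogdh, Acadm, Etfa and Etfdh, beside 3.05% of all genes and 5.78% of those tested. From 100 bases before to 50 after the start it occurred in 1 of 33 (3.03%), Ogdh, beside 4.3% of those tested. A gene counted if any of its promoters matched, and Ogdh has several. AAGGTCA, the core of estrogen-related receptor sites, occurred in Ogdh and Acadm (6.06%), beside 5.38% and 3.97%, and its longer form TCAAGGTCA, which contains it, occurred in 0 of 33, beside 0.466% of all genes. CACGTG, the E-box bound by Myc and other factors, occurred in Pcx and Ogdh (6.06%), beside 8.09% and 11.5%. The log2 fold changes of the 6 genes with CCGGAAG ran from -0.10 (Dlst) to 0.24 (Cpt2), the whole range of the 36. A match describes letters in a window and is no measure of binding.

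All 36 genes were well covered, with 621 to 43398 counts per gene and library. The deposited FPKM, fragment counts scaled by gene length and library size, allow levels of different genes to be set side by side. By mean FPKM over the 6 libraries, 23 of the 36 lay in the upper 20% of tested genes, and Pcx alone lay below the median of tested genes. The level of the highest gene was 64.5 times that of the lowest. At the top stood the cycle's malate dehydrogenase Mdh2 at 149, Etfb, a subunit of the flavoprotein that collects electrons from the acyl-CoA dehydrogenases, at 133, the thiolase Acaa2 at 115, and the isocitrate dehydrogenase subunit Idh3g at 103 FPKM. At the bottom stood pyruvate carboxylase, Pcx, at 2.31 FPKM, the carrier subunit Mpc2 at 3.40, Hadh, which oxidises short and medium chain hydroxyacyl-CoA, at 6.37, and Suclg2, the GTP-forming subunit of succinyl-CoA synthetase, at 6.83. The FPKM divide by the length of all exons of a gene together, 7344 bases for Mpc2 where its longest transcript has 4015 bases, so the order of neighbouring levels depends on that length. For Mpc2 the mean over the 6 libraries was 6.94 CPM (counts scaled to library size) per kilobase of the longest transcript, and for Mpc1 it was 82.9, so Mpc2 was the lower on both lengths.

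**Figure D2:**
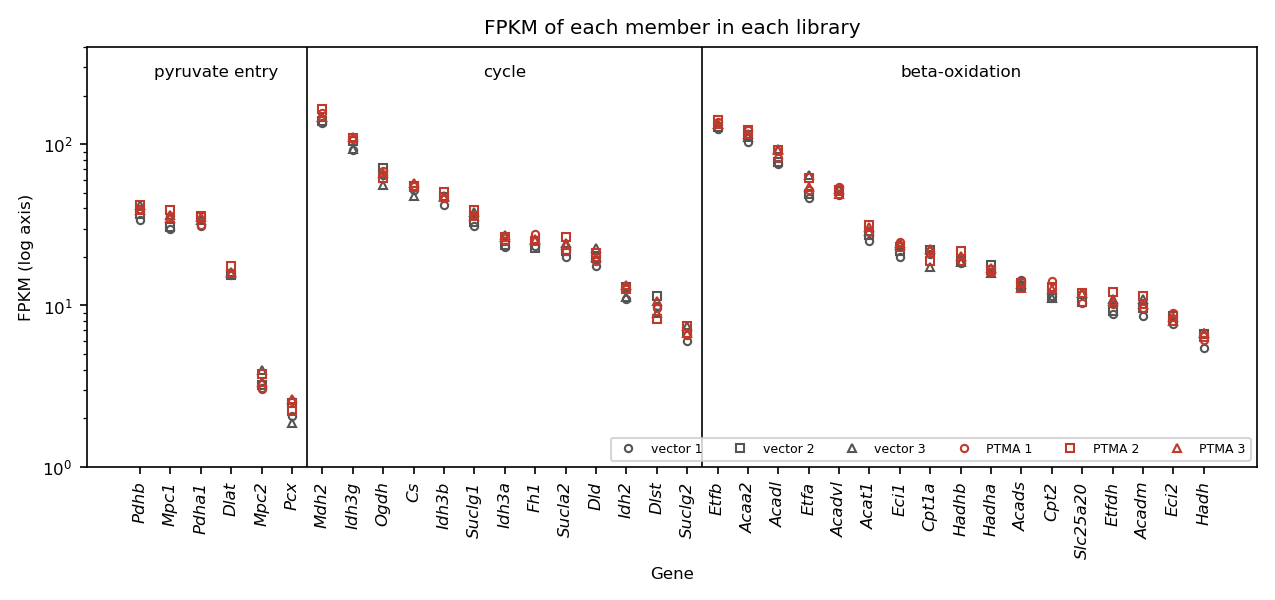
FPKM (log axis) of each of the 36 genes in each of the 6 libraries, ordered within each pathway by mean FPKM; circles, squares and triangles are replicates 1, 2 and 3, grey for vector and red for PTMA. The spread between genes, from Pcx at 2.31 to Mdh2 at 149 on average, is far wider than the spread between libraries of 1 gene.

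Ratios within a library set partner subunits side by side, as a description with no test. The FPKM ratio of Suclg2 to Sucla2, the GTP-forming and ATP-forming subunits, was 0.307 ± 0.00236 (SD, n = 3) with vector and 0.288 ± 0.0120 (SD, n = 3) with PTMA. That of Etfb to Etfa ran from 2.08 in vector 3 to 2.69 in vector 1, with 2.30 to 2.66 in the PTMA libraries. The ratio of Hadhb to Hadha, the partner subunits of the trifunctional protein, was 1.12 ± 0.0552 (SD, n = 3) with vector and 1.23 ± 0.0759 (SD, n = 3) with PTMA, and the groups touched, with 1.17 both in vector 3 and in PTMA 1. The ratio of Mpc2 to Mpc1 was 0.103, 0.106 and 0.109 with vector and 0.0854, 0.0964 and 0.0956 with PTMA. All 3 PTMA values lay below those of the vector libraries. The same held for Suclg2 to Sucla2, at 0.305, 0.309 and 0.306 with vector and 0.302, 0.28 and 0.284 with PTMA. Of further pairs looked at, Idh1 to Idh2 (lower with PTMA) and Ldha to Ldhb (higher) also did not overlap, and the others overlapped. How often ratios of other gene pairs separate was not tested. Among the chain-length enzymes, the very long chain dehydrogenase Acadvl stood at 4.58 to 5.61 times the FPKM of the medium chain enzyme Acadm, without separation of the groups.

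Pyruvate entry was the pathway whose genes varied most between the vector libraries, with a median coefficient of variation of 11.9%. Mpc1 (ENSMUSG00000023861, chromosome 17, 8282904 to 8297661, GRCm38 here and throughout) encodes a subunit of the pyruvate carrier. It had 69.7, 67.5 and 87.2 CPM with vector (libraries 1 to 3 in order, as in all such lists) and 82.8, 91.0 and 80.0 CPM with PTMA, 74.8 ± 10.8 against 84.6 ± 5.74 (SD, n = 3 each). Vector 1 and 2 lay below all PTMA libraries and vector 3 within their range, and the log2 fold change was 0.18 (SE 0.11, adjusted p = 0.951, edgeR). Its partner Mpc2 (ENSMUSG00000026568, chromosome 1, 165460637 to 165481214) had 25.4, 25.2 and 33.6 CPM with vector and 24.9, 31.0 and 27.0 CPM with PTMA. Here the groups overlapped, and the log2 fold change was -0.02 (SE 0.14, adjusted p = 0.989, edgeR). Pcx (ENSMUSG00000024892, chromosome 19, 4510472 to 4621752) encodes pyruvate carboxylase, which feeds pyruvate into oxaloacetate. Its 11.1, 12.7 and 10.3 CPM with vector and 13.6, 11.9 and 13.7 CPM with PTMA overlapped through vector 2 and PTMA 2, at a log2 fold change of 0.20 (SE 0.13, adjusted p = 0.951, edgeR). In contrast to Mpc1, vector 3 was the lowest library for Pcx. Pdhb (ENSMUSG00000021748, chromosome 14, 8165996 to 8173025), the beta subunit of the E1 enzyme of pyruvate dehydrogenase and the highest of the 6 by FPKM (38.9), had 147, 151 and 186 CPM with vector and 170.3, 183 and 165 CPM with PTMA. Vector 3 was the highest of all 6 libraries, and the log2 fold change was 0.10 (SE 0.10, adjusted p = 0.952, edgeR). The other E1 subunit, Pdha1, and the E2 enzyme, Dlat, had log2 fold changes of 0.03 and 0.07, with overlapping groups.

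Of the cycle genes, Idh3g (ENSMUSG00000002010, chromosome X, 73778963 to 73786897), a regulatory subunit of the NAD-dependent isocitrate dehydrogenase, had the smallest p-value; its promoter is printed above. It stood at 280.1, 301 and 291 CPM with vector and at 324, 334 and 328 CPM with PTMA, 291 ± 10.5 against 328 ± 5.02 (SD, n = 3 each). Every PTMA library lay above every vector library, at a log2 fold change of 0.17 (SE 0.06, 95% interval 0.04 to 0.31), which did not pass (adjusted p = 0.951, edgeR) and ranked 226 by p among the genes tested. The catalytic subunit Idh3a and the subunit Idh3b of the same enzyme had smaller estimates, 0.08 and 0.06, and overlapping groups; whether the 3 subunits differ in response was not tested. Mdh2 (ENSMUSG00000019179, chromosome 5, 135778480 to 135790391) closes the cycle by oxidising malate and had the highest level of all 36. Its 543, 529 and 607 CPM with vector and 621, 664 and 580.4 CPM with PTMA overlapped only through vector 3 and PTMA 3, at a log2 fold change of 0.15 (SE 0.08, adjusted p = 0.951, edgeR). Cs (ENSMUSG00000005683, chromosome 10, 128337734 to 128362479) encodes citrate synthase, the entry step. It had 339, 337 and 318 CPM with vector and 352, 350.1 and 367 CPM with PTMA, groups that did not overlap, at a log2 fold change of 0.11 (SE 0.06, adjusted p = 0.951, edgeR). Idh2, the NADP-dependent mitochondrial isocitrate dehydrogenase, singled out after its values were seen because its groups did not overlap, had 32.0, 35.8 and 33.7 CPM with vector and 36.7, 36.7 and 38.3 CPM with PTMA. Its log2 fold change was 0.14 (SE 0.08, adjusted p = 0.951, edgeR).

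The oxoglutarate dehydrogenase step had estimates near or below 0. Dlst (ENSMUSG00000004789, chromosome 12, 85110833 to 85134845), its E2 enzyme, had 107, 117 and 99.4 CPM with vector and 103, 88.7 and 111 CPM with PTMA, overlapping groups with PTMA 2 the lowest. Its log2 fold change of -0.10 (SE 0.10, adjusted p = 0.952, edgeR) was the lowest of the 36. Dld (ENSMUSG00000020664, chromosome 12, 31331277 to 31351453), the E3 enzyme that this complex shares with pyruvate dehydrogenase, had 72.6, 77.5 and 96.4 CPM with vector and 77.4, 87.0 and 81.4 CPM with PTMA, at a log2 fold change of 0.00 (SE 0.11). Vector 3 was the highest library for Dld and the lowest for Ogdh, the E1 enzyme, which had 394, 411 and 352 CPM with vector, 412, 379 and 399 CPM with PTMA, and a log2 fold change of 0.04. Succinyl-CoA synthetase had estimates of 0.12 for Suclg1, 0.13 for Sucla2 and 0.04 for Suclg2, the lowest of the cycle genes by FPKM (ENSMUSG00000061838, chromosome 6, 95473009 to 95718800). Suclg2 had 31.5, 33.0 and 39.6 CPM with vector and 33.7, 38.8 and 34.3 CPM with PTMA, with vector 3 the highest. Fumarase, Fh1, had a log2 fold change of 0.13 and overlapping groups.

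Among the beta-oxidation genes Cpt2 (ENSMUSG00000028607, chromosome 4, 107903981 to 107923610), which turns acylcarnitine back into acyl-CoA inside the mitochondrion, had the highest estimate of all 36, and both of its CCGGAAG matches lie within the window shown. It had 30.7, 28.2 and 30.5 CPM with vector and 37.5, 35.1 and 33.3 CPM with PTMA, 29.8 ± 1.38 against 35.3 ± 2.12 (SD, n = 3 each). The groups did not overlap, and the log2 fold change was 0.24 (SE 0.09, 95% interval 0.04 to 0.45), 1.18-fold, which did not pass (adjusted p = 0.951, edgeR) at rank 320 by p. Its counterpart on the outer membrane, Cpt1a, the rate-limiting step of the pathway, had 179, 180.4 and 152 CPM with vector and 186, 162 and 188 CPM with PTMA, at a log2 fold change of 0.07 with overlapping groups. The carrier between them, Slc25a20 (ENSMUSG00000032602, chromosome 9, 108662088 to 108684641), had 63.7, 54.1 and 67.3 CPM with vector and 55.6, 65.4 and 63.7 CPM with PTMA, at a log2 fold change of 0.00 (SE 0.10). The carnitine route held the highest estimate of beta-oxidation and an estimate at 0, and the difference between its genes was not tested.

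The acyl-CoA dehydrogenases, which open each turn of beta-oxidation by chain length, did not separate between the groups. Log2 fold changes were 0.10 for the long chain enzyme Acadl, 0.09 for Acadm, 0.03 for Acadvl and -0.03 for the short chain enzyme Acads (ENSMUSG00000029545, chromosome 5, 115110299 to 115119346). Acads had 36.8, 32.1 and 35.3 CPM with vector and 35.1, 35.0 and 32.1 CPM with PTMA. The electron carriers downstream had estimates of 0.06 for Etfa, 0.09 for Etfb and 0.17 for Etfdh, the oxidoreductase that passes the electrons on to ubiquinone. Etfb (ENSMUSG00000004610, chromosome 7, 43444083 to 43457800) had 164, 158 and 180.5 CPM with vector and 178, 185 and 170.3 CPM with PTMA, so vector 3 lay among the PTMA libraries. Etfa, singled out after its values were seen, had the widest spread of the 36 in a group: 96.1, 95.3 and 137 CPM with vector, a coefficient of variation of 21.8%, and 106, 127 and 109 CPM with PTMA.

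Of the later steps, the thiolases Acaa2 and Acat1 followed Cpt2 in order of p. Acaa2 had 176, 183 and 193 CPM with vector and 207, 210.3 and 193 CPM with PTMA, so only vector 3 and PTMA 3 met, at a log2 fold change of 0.14 (SE 0.07, adjusted p = 0.951, edgeR). Acat1 (ENSMUSG00000032047, chromosome 9, 53580522 to 53610382), which also acts in ketone body and isoleucine metabolism, had 105, 109 and 126 CPM with vector and 120, 133 and 127 CPM with PTMA. Its log2 fold change was 0.16 (SE 0.09, adjusted p = 0.951, edgeR), with vector 3 within the PTMA range. Hadh (ENSMUSG00000027984, chromosome 3, 131233419 to 131272101), the lowest of the 17 by FPKM, had 30.6, 35.1 and 38.9 CPM with vector and 34.0, 35.9 and 37.0 CPM with PTMA, at a log2 fold change of 0.03 (SE 0.11). The subunits of the trifunctional protein, which acts on long chains, had estimates of 0.00 for Hadha and 0.13 for Hadhb. Hadha had the lowest coefficient of variation of the 36 in the vector group, 2.37%, with 158, 166 and 160.3 CPM there and 157, 164 and 164 CPM with PTMA. The isomerases Eci1 and Eci2, which ready unsaturated chains for the pathway, had log2 fold changes of 0.14 and 0.07.

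The 3 vector libraries were not alike in these genes. The 36 genes together summed to 4604, 4655 and 5047 CPM with vector and to 5015, 5244 and 5017 CPM with PTMA, so vector 3 lay within the range of the PTMA libraries and vector 1 and 2 below it. For the cycle the sums were 2434, 2478 and 2597 CPM with vector and 2665, 2742 and 2647 CPM with PTMA, which did not overlap. Beta-oxidation summed to 1702, 1699 and 1896 CPM with vector and 1842, 1938 and 1852 CPM with PTMA, and pyruvate entry to 469, 478 and 554 CPM and to 508, 564 and 517 CPM, both with vector 3 above PTMA 1 and PTMA 3. Counted by gene, vector 1 lay below all 3 PTMA libraries in 27 of the 36, vector 2 in 24 and vector 3 in 7. Over all tested genes the shares were 28.1%, 30.2% and 27.0%. Vector 1 and 2 both lay below all PTMA libraries in 23 of the 36 (63.9%), beside 17.4% of all tested genes. Vector 3 lay above all 3 PTMA libraries in 11 of the 36 (30.6%), near the 29.9% of all tested genes. It was the highest of the 6 libraries for 10 genes, and PTMA 2 was for 14. Over all tested genes these shares were 22.4% and 15.6%. The median coefficient of variation of the 36 genes was 9.54% in the vector group and 5.86% in the PTMA group, close to the 9.22% and 6.46% of all tested genes in the same range of expression.

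**Figure D3:**
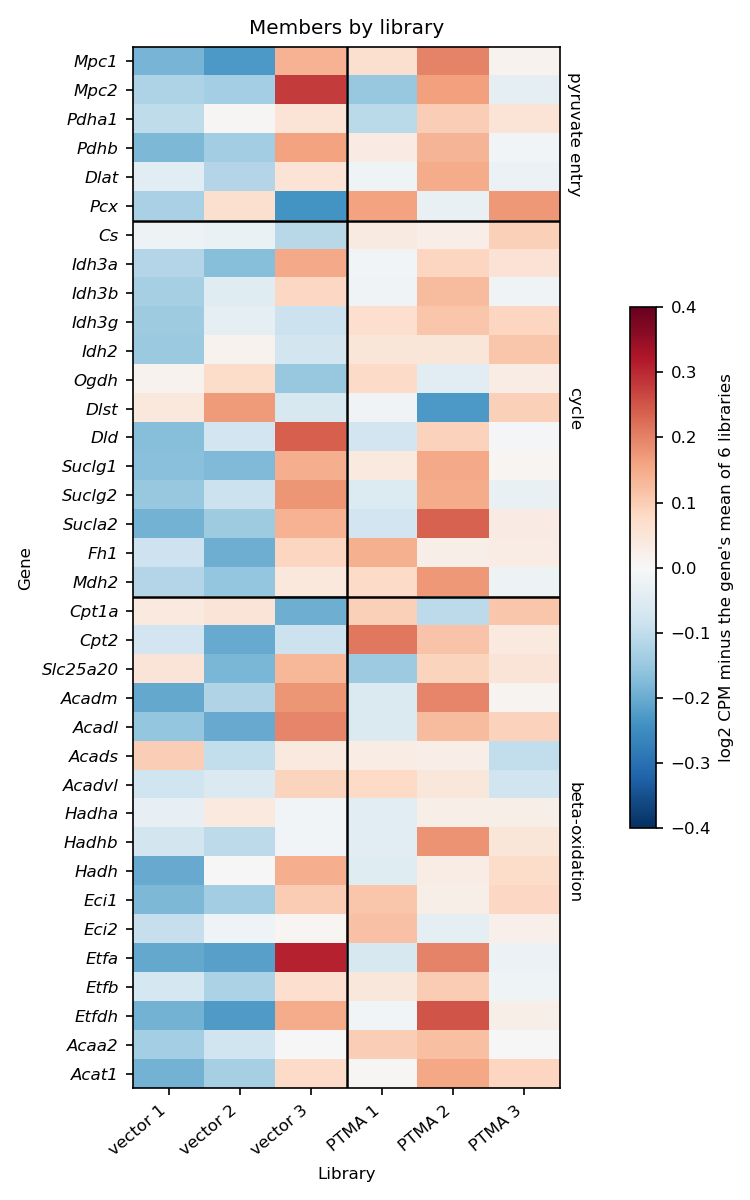
Log2 CPM of each of the 36 genes in each library minus the gene's mean over the 6 libraries (colour), ordered by pathway. Vector 3 lies above its gene's mean in 25 of 36 genes, against 5 and 7 for vector 1 and 2 and 19, 31 and 24 for PTMA 1, 2 and 3.

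**Figure D4:**
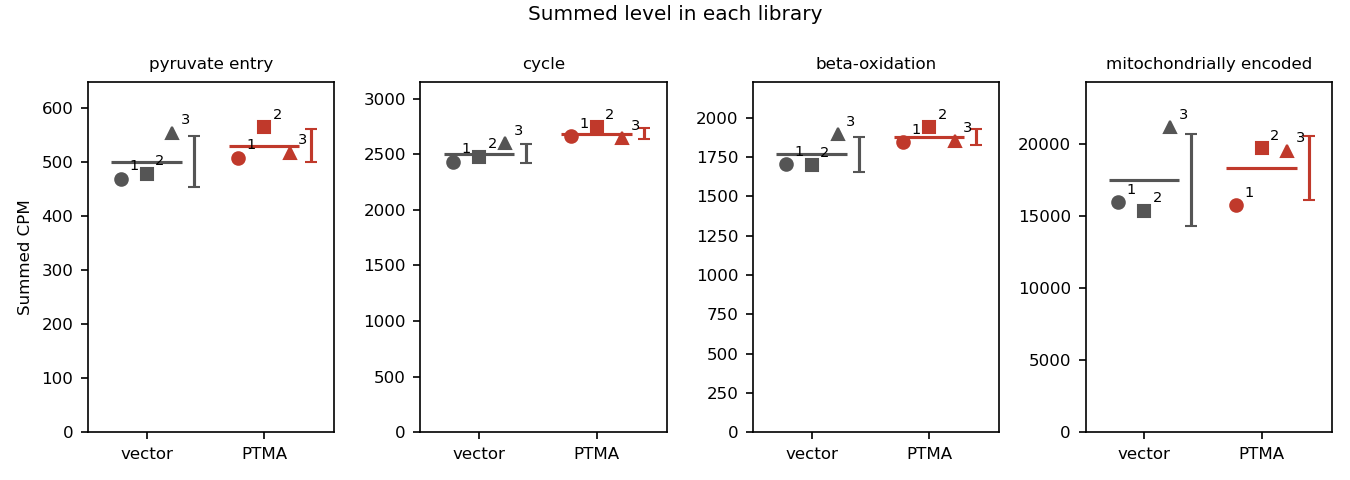
Summed CPM of the genes of each pathway and of the mitochondrially encoded mRNAs in each library (numbered by replicate), with the mean (line) and SD (bracket) of 3 libraries; axes start at 0. Vector 3 lies above the vector mean in all 4 panels, and the cycle alone has no overlap between the groups.

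The difference of vector 3 from the other vector libraries went with the base composition of the transcripts and, over all genes in the same range of expression, the exon length. In log2 CPM, vector 3 minus the mean of vector 1 and 2 had a median of 0.17 over the 36 genes, from -0.24 for Cpt1a to 0.52 for Etfa. Of the 36, 29 (80.6%) lay above 0. Over 8777 tested genes in the same range the median was 0.04 and 55.1% lay above 0. Across the 36 genes Spearman's rho of this difference with the GC content of the longest transcript was -0.65, a description across genes of the same libraries. PTMA 2 minus the mean of PTMA 1 and 3 gave a rho of -0.67 with GC content. Over 8777 tested genes in the same range the corresponding values were -0.30 and -0.14. With exon length the rho of the vector 3 difference was -0.25 over the 36 genes and -0.42 over those 8777. For the difference between the group means, PTMA minus vector, rho over the 36 genes was 0.07 with GC content and -0.34 with length. The median difference was 0.12 in the 18 shorter and 0.07 in the 18 longer genes. Over the 8777 genes rho was 0.12 with GC content and -0.21 with length, and the medians were 0.04 for shorter and -0.01 for longer genes. With offsets for GC content and length in the fit, an alternative added after the data were seen, 7 of the 36 genes had an unadjusted p under 0.05 on the higher side in edgeR's quasi-likelihood test (background 3.48%), and none passed after adjustment. The mitochondrially encoded mRNAs also moved between libraries, summing to 15940.3, 15348 and 21126 CPM with vector and 15747, 19687 and 19497 CPM with PTMA, and their part in the result was not tested.

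**Figure D5:**
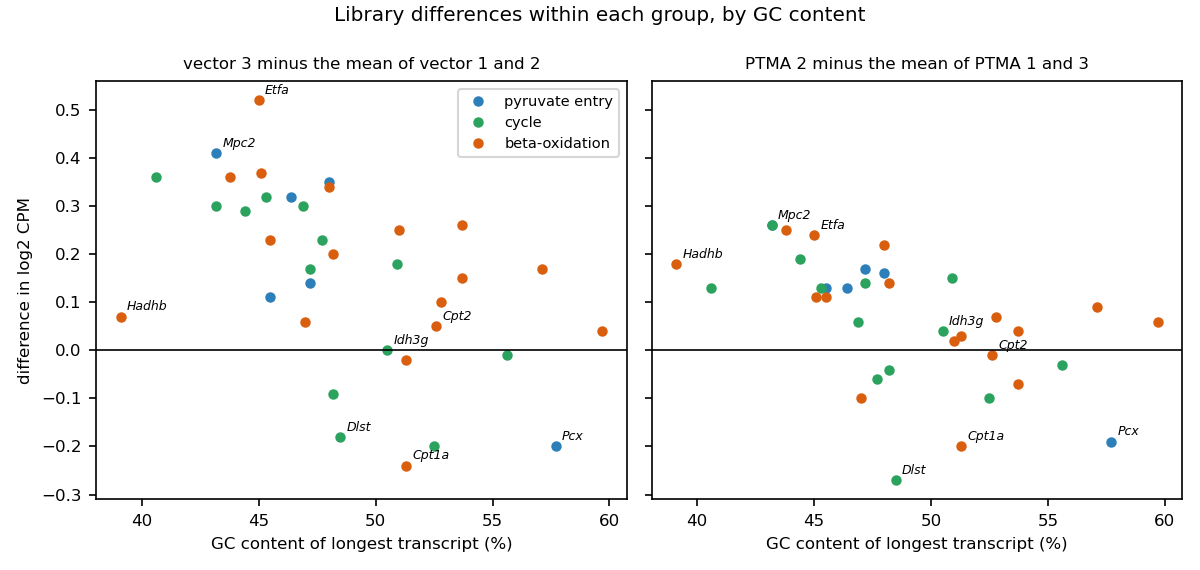
Difference in log2 CPM of vector 3 from the mean of vector 1 and 2, and of PTMA 2 from the mean of PTMA 1 and 3, against the GC content of the longest transcript (%), 1 point for each of the 36 genes, coloured by pathway. Genes of lower GC content lie higher in both panels, with Spearman's rho of -0.65 and -0.67.

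The libraries as a whole held 54989408 to 66767589 counts each. Ptma itself had a log2 fold change of 0.44 (SE 0.13) and did not pass (adjusted p = 0.951, edgeR). It had 848, 783 and 1146 CPM with vector and 1152, 1346 and 1272 CPM with PTMA, so vector 3 lay just below PTMA 1. Whether the Ptma level had a part in the place of vector 3 among the libraries was not tested. CD8 T cell markers, all 8 present, summed to 7325 to 7861 CPM with vector and 7402 to 7769 CPM with PTMA. CD4 T cell markers (4 of 4 found) summed to at most 11.0 CPM in any library. NK cell (3 of 3), liver and muscle (5 of 6) and erythroid (4 of 6) markers each summed to at most 12.2 CPM. Ncr1, Alb and Hbb-bs had 13 counts or fewer in every library, while Klrb1c, at 10.3 CPM on average, made up most of the NK cell sum. Tyrobp had 22 to 42 counts, Acta1 18 to 31 and Ckm 50 to 84 across the libraries, and Apoa1 had 17 in vector 3. B cell markers (4 of 5 found) summed to 3.95 to 4.95 CPM with vector and 5.38 to 6.69 CPM with PTMA, groups that did not overlap, mostly through Cd79b (3.24 to 4.13 and 4.98 to 6.17 CPM). Of the 11 myeloid and dendritic markers 7 were found, summing to 338 to 389 CPM, of which Ccr7, which T cells also express, made up 346 CPM on average. Within that list the dendritic cell genes Ccl22 and Fscn1 were higher in every PTMA library than in any vector library. Ccl22 had 0.709 to 2.09 CPM with vector and 5.86 to 8.42 CPM with PTMA. Fscn1 had 0.0806 to 0.339 and 1.51 to 1.82 CPM, and the adjusted p were 0.199 and 0.318 (edgeR). The groups overlapped for Xcr1 (7.14 to 8.27 and 6.79 to 10.4 CPM), Flt3 (0 to 0.322 and 0.274 to 1.0 CPM) and Ccr7 (log2 fold change 0.03). Itgam and Csf1r had 15 counts or fewer in every library. Adipocyte markers (3 of 7 found), looked at because an adipose type is named in the extraction protocol, summed to 0.214 CPM or less, with Adipoq, Fabp4 and Cidec at 12 counts or fewer in every library and at 0 in 5, 4 and 4 of the 6. Oocyte markers (6 of 6 found) summed to 22.9 to 33.8 CPM with vector and 1.56 to 4.16 CPM with PTMA. Their leading gene Gdf9 had a log2 fold change of -3.9 (adjusted p = 0.0397, edgeR) and was 1 of the 2 genes that passed among all tested. Keratinocyte markers (5 of 5) summed to 1.86, 19.6 and 29.0 CPM with vector and 10.7, 2.59 and 1.37 CPM with PTMA. Krt14, Krt5, Krt1 and Lor had no counts in vector 1, PTMA 2 and PTMA 3, so these markers differed by library within both groups. The part of these dendritic, B cell, oocyte and keratinocyte markers in the results was not tested. In bulk RNA, fewer cells of a type and less RNA per cell cannot be told apart.

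Genes around these pathways, 117 others listed by name, likewise held no gene that passed the test. Of the 106 tested, 74 (69.8%) lay above 0, and 4 were higher and 1 lower at an unadjusted p under 0.05 in edgeR's quasi-likelihood test (background 1.92% and 2.72%). Of the 15 other cycle genes tested, with the succinate dehydrogenase subunits among them, 14 lay above 0 (median 0.08). The membrane subunit Sdhc had 164 ± 14.6 CPM with vector and 182 ± 11.2 CPM with PTMA (SD, n = 3 each), a log2 fold change of 0.15 (SE 0.08, adjusted p = 0.951, edgeR). Of 18 genes for anaplerosis and mitochondrial carriers, 17 lay above 0 (median 0.09). The dicarboxylate carrier Slc25a10 had 35.1, 38.6 and 33.6 CPM with vector and 47.9, 38.7 and 45.0 CPM with PTMA, a log2 fold change of 0.29 (SE 0.10), and the glutaminase Gls2 had 0.49 (SE 0.23) at 0.782 FPKM.

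Other parts of fatty acid metabolism were mixed. Of 15 tested genes for fatty acid uptake, activation and malonyl-CoA control, 7 lay above 0 (median -0.05). Acaca, which makes malonyl-CoA, the inhibitor of Cpt1a, had a log2 fold change of -0.27 (SE 0.20), and the acyl-CoA synthetase Acsl5 had 0.10. Of 23 other beta-oxidation enzymes 18 lay above 0 (median 0.05), with 0.19 (SE 0.07) for Ivd and 0.21 (SE 0.10) for Gcdh, dehydrogenases of amino acid breakdown. Of 16 tested pyruvate dehydrogenase regulators and other pyruvate users 9 lay above 0 (median 0.06). The cytosolic malic enzyme Me1 had a log2 fold change of -2.35 (SE 0.93, adjusted p = 0.951, edgeR) at very low counts, 52, 40 and 56 with vector and 23, 8 and 0 with PTMA. Lactate dehydrogenase A, Ldha, had 2579 ± 131 CPM with vector and 2847 ± 70.8 CPM with PTMA (SD, n = 3 each), a log2 fold change of 0.14 (SE 0.06, adjusted p = 0.951, edgeR). Of 19 tested transcriptional regulators 9 lay above 0 (median 0.00), with 0.14 for the receptor Rxrb and 0.12 for the factor subunit Gabpb1. Among the genes with too few counts to be tested were the kinase Pdk4, the muscle enzyme Cpt1b, the receptor Ppara and the coactivator Ppargc1a.

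The counting program's use of strand and of reads with several matches is not given in the sources used here, which leaves some values uncertain. Mpc1 has a processed pseudogene, Mpc1-ps, identical over 261 aligned bases and listed with 12035 counts over the 6 libraries beside 30239 for Mpc1. Summed with it, the log2 ratio of PTMA to vector means was 0.17. Suclg2 has the pseudogene Gm15163, 98.9% identical over 1302 bases, and summed with it the ratio was 0.01. Exons of Acadvl overlap those of Dvl2 on the opposite strand over 1151 bases, and Dvl2 had 29.8 ± 4.01 CPM with vector and 37.2 ± 3.51 CPM with PTMA (SD, n = 3 each). Exons of Etfdh overlap those of 4930579G24Rik on the opposite strand over 278 bases. That gene had 14473 counts over the 6 libraries beside 32759 for Etfdh, and its part in the Etfdh estimate was not tested. In all, 8 of the 36 genes share exon bases with another gene, and 7 start within 1000 bases of a gene on the other strand. Such pairs are Hadha and Hadhb, whose starts lie 86 bases apart, Mdh2 and Styxl1 (95 bases) and Idh3g and Ssr4 (131 bases).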

How the data were processed

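Poly(A) RNA of 6 libraries was sequenced in pairs, per the labels' protocols. The authors deposited 1 table of raw whole-number counts and FPKM per gene, scaled by library size and exon length, per the file headers and values. Bowtie 0.12.2, HISAT2 2.0, StringTie 1.3.0 and mm8 are listed in the submitters' processing notes, without roles. The gene positions are however those of GRCm38: 99.7% of the 27405 identifiers that GENCODE M21 also holds have its start or end. Coordinates are the table's.

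Because the table held counts, edgeR 4.0.16 (R 4.3.3) was used with TMM scaling, filterByExpr (minimum count 10) and the quasi-likelihood test over all 6 libraries, with group as the only term and Benjamini-Hochberg adjustment. CPM are TMM-scaled. The code was tested on simulated data. Libraries of 1 group differed by 17.7 or more in chi-square per gene, so none is a duplicate. Deviations of libraries with the same number were not positively correlated (-0.12, -0.16 and -0.12), so the numbers were not taken as pairs.

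The members and lists were chosen with earlier results of these data known. Per-library values are given for the 3 members of each pathway with the smallest p, the highest and lowest FPKM and up to 3 negative estimates, and also for Idh2, Ogdh, Cpt1a, Hadha and Etfa, chosen after their values were seen; of each other list the 2 genes with the smallest p are named, except 1 that is not reported here. Alternatives were other scalings, no filter, DESeq2 1.42.0, robust edgeR, a replicate block, limma 3.58.1 on log2(FPKM + 1) or + 0.1, leaving out each library and, added after the data were seen, GC and length offsets.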

Additional observations from a re-analysis of the deposited data

How the results depend on the processing

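In all 17 alternatives 0 of the 36 genes passed the adjusted threshold, and the smallest adjusted p was 0.196 for Mpc1. DESeq2 called 43 genes of 23734 (0.181%) against 2 in the edgeR quasi-likelihood test, the replicate block 0 and leaving out a library 0 to 4; the block left 2 of the 36 genes with an unadjusted p under 0.05, as before. The median over the 36 genes was 0.06 to 0.10 in the 11 alternatives with all libraries and 0.06 to 0.15 with 1 left out, and 24 genes kept the sign of their log2 fold change throughout. The other 12 changed sign at least once. Dld gave 0.00 with median-of-ratios size factors and 0.01 with no filter, DESeq2, the replicate block, limma and the offsets. Slc25a20 gave 0.00 with median-of-ratios and limma and 0.01 with no filter, DESeq2 and the offsets. Hadha gave -0.01 with upper-quartile scaling and -0.03 with library totals. With the offsets Mpc2 gave 0.05 and Acadvl 0.00. With 1 library left out the ranges were -0.11 to 0.13 for Mpc2, -0.01 to 0.09 for Pdha1, -0.02 to 0.10 for Ogdh, -0.09 to 0.13 for Dld, -0.03 to 0.14 for Suclg2, -0.01 to 0.13 for Cpt1a, -0.08 to 0.07 for Slc25a20, -0.07 to 0.03 for Acads, 0.00 to 0.09 for Acadvl, -0.01 to 0.03 for Hadha, -0.05 to 0.12 for Hadh and -0.03 to 0.25 for Etfa. The cause of these changes was not tested.

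With 3 libraries in each group and a median SE of 0.0913, differences of the size seen here were not detectable gene by gene after adjustment. Whether replicates are separate cultures is not given. The labels give 1 time point, and RNA levels say nothing of enzyme amount or flux.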
